A study of Rattus norvegicus with 9 samples.

Results

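The 10 genes described here encode enzymes that make or break down lipid mediators from membrane phospholipid: Alox5, Alox5ap, Ltc4s and Lta4h of the leukotriene arm, Ptgs1, Ptgs2, Hpgds and Tbxas1 of the prostanoid arm, and the phospholipases Pla2g4a and Pla2g7. They were taken by name from a table of raw read counts for 28343 genes in retinal microglia of the rat, and they were selected on the difference between diabetic and control libraries in that table, which was already known, so that difference is given for them as a description with no test. All 10 had enough counts to be tested, among 11748 genes that did. The animals were Dark Agouti rats, an inbred strain, which were 8 to 10 weeks old when diabetes was induced. Diabetic rats received streptozotocin, which destroys the insulin-producing beta cells, at 55 mg/kg after 12 hours without food, and 2 units of insulin (Protaphane) when blood glucose rose above 30 mmol/l; controls received citrate buffer after the same fast. Both groups were taken 4 weeks after the injection. Cells were dissociated from whole retina with papain, sorted for CD11b, and their RNA was preamplified (SmartSeq v4) before library preparation. There were 5 control libraries (numbers 1, 3, 4, 5 and 6) and 4 diabetic libraries (1, 2, 4 and 5), and the labels do not say whether 1 library is 1 rat, so the spread between libraries may be partly technical.

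Leukotrienes and prostanoids share a precursor. Cytosolic phospholipase A2 releases arachidonic acid from membranes, 5-lipoxygenase with its helper protein FLAP turns it into leukotriene A4, and the cyclooxygenases turn it into prostaglandin H2. Leukotriene A4 is then used by competing enzymes: leukotriene C4 synthase adds glutathione and opens the cysteinyl leukotriene route, and leukotriene A4 hydrolase makes the neutrophil attractant leukotriene B4. Platelet-activating factor (PAF) comes from the same membrane pool and is inactivated by PAF acetylhydrolases, of which Pla2g7 encodes the secreted form. Microglia are among the main sources of cyclooxygenase 1 in nervous tissue, and leukotrienes have been linked to leukocyte adhesion in the diabetic retina.

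Promoter sequence is shown for genes that the later values set side by side. Ptgs2 and Pla2g4a are neighbours on chromosome 13: their starts lie 141.7 kb apart on GRCr8, on opposite strands and pointing away from each other, with 0 protein-coding genes between them in RefSeq. Alox5, Ltc4s and Pla2g7 were the members of which every diabetic library lay above every control library and for which RefSeq's promoter table had an entry. Each line gives the 250 bases before the transcription start, 5′ to 3′ on the gene's own strand, from RefSeq's GRCr8 assembly and not from Dark Agouti DNA. Capitals mark a match to any of 6 motifs searched on both strands, and the remaining letters are lower case. The windows are chr13:64713813-64714062 (plus strand) for Ptgs2, chr13:64572353-64572602 (minus) for Pla2g4a, chr4:151251127-151251376 (minus) for Alox5, chr10:35063595-35063844 (minus) for Ltc4s and chr9:24901748-24901997 (minus) for Pla2g7.
Ptgs2: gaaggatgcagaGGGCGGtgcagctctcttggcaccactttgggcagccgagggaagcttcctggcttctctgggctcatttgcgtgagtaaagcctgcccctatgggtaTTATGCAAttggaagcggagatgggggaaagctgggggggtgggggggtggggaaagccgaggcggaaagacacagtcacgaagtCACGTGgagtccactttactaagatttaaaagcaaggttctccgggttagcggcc
Pla2g4a: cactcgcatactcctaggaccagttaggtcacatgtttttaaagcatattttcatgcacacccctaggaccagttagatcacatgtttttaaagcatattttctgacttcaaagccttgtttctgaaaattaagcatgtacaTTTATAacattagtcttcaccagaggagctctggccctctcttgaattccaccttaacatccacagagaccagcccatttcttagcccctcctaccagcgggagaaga
Alox5: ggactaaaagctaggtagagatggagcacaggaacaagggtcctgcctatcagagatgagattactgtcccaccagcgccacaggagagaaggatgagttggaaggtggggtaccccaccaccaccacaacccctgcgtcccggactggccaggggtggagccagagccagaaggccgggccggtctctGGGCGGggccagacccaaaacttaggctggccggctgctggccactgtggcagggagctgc
Ltc4s: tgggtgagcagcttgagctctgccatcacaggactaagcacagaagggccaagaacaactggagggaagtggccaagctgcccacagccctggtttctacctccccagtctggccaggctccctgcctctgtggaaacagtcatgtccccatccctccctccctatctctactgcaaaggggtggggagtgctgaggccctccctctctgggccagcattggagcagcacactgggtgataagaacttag
Pla2g7: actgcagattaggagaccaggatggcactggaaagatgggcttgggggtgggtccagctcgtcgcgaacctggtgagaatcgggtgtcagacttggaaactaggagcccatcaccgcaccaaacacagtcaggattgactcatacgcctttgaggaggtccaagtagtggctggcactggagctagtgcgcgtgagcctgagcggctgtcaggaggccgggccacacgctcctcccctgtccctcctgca

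The motifs were TATAAA (the box bound by TBP), TGACGT (cyclic AMP response core), GAGGAA (ETS core with flank), GGGCGG (GC box), TTGCNNAA (C/EBP) and CACGTG (E box). Among the 33469 promoters of the table, 12.9%, 6.95%, 23.3%, 30.5%, 9.22% and 5.59% held them, in that order. The Ptgs2 window, of the inducible cyclooxygenase, held a GC box starting 238 bases before the start, a C/EBP match at 140 and an E box at 55. The Pla2g4a window held a TBP box on the other strand at 108 bases, and Alox5 held a GC box at 61 bases. The windows of Ltc4s and Pla2g7 held no match, which says only that these letters are not in these 250 bases. In base composition Alox5 (62.8% G and C), Pla2g7 (60.0%) and Ltc4s (58.8%) lay above the median promoter of the table (51.2%). Ptgs2 (57.2%), Lta4h (57.2%) and Ptgs1 (54.4%) lay above it too, and Tbxas1 (42.8%) and Pla2g4a (42.4%) lay below it. Of the 10 members 8 had a promoter entry, and Alox5ap and Hpgds had none.

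Library totals ran from 6228756 to 11332823 counts, lowest in diabetic 4. In edgeR's quasi-likelihood test across all genes 8 passed an adjusted p of 0.05, which is 0.0681% of those tested, and 18.9% had an unadjusted p below 0.05. For 8.44% of genes the 4 diabetic values did not overlap the 5 control values. All 12 microglia markers checked were detected, at a summed level of 32909 to 38020 CPM (counts scaled to the TMM-corrected library size) in control and 33072 to 34980 CPM in diabetic libraries. Controls 4 and 6 were the highest in genes of the response to cell isolation, and they stood apart in inflammatory cytokines. The isolation response list summed to 25771 and 34139 CPM in controls 4 and 6, and diabetic 5 came next at 21253 CPM. The summed cytokine level was 25678 and 45587 CPM in controls 4 and 6 and 1915 to 7873 CPM in the other 7.

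Of the 10 members, 1 (Pla2g7) passed the adjusted threshold and 6 had an unadjusted p below 0.05, against the 0.0681% and 18.9% above. The diabetic values lay above the control values without overlap for Alox5, Alox5ap, Ltc4s and Pla2g7, lay below them for Lta4h and Ptgs1, and overlapped for the remaining 4. These counts follow from how the genes were chosen, and nothing is read from them. The median log2 fold change of the members was -0.015, and that of all genes was 0.0018.

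**Figure D1:**
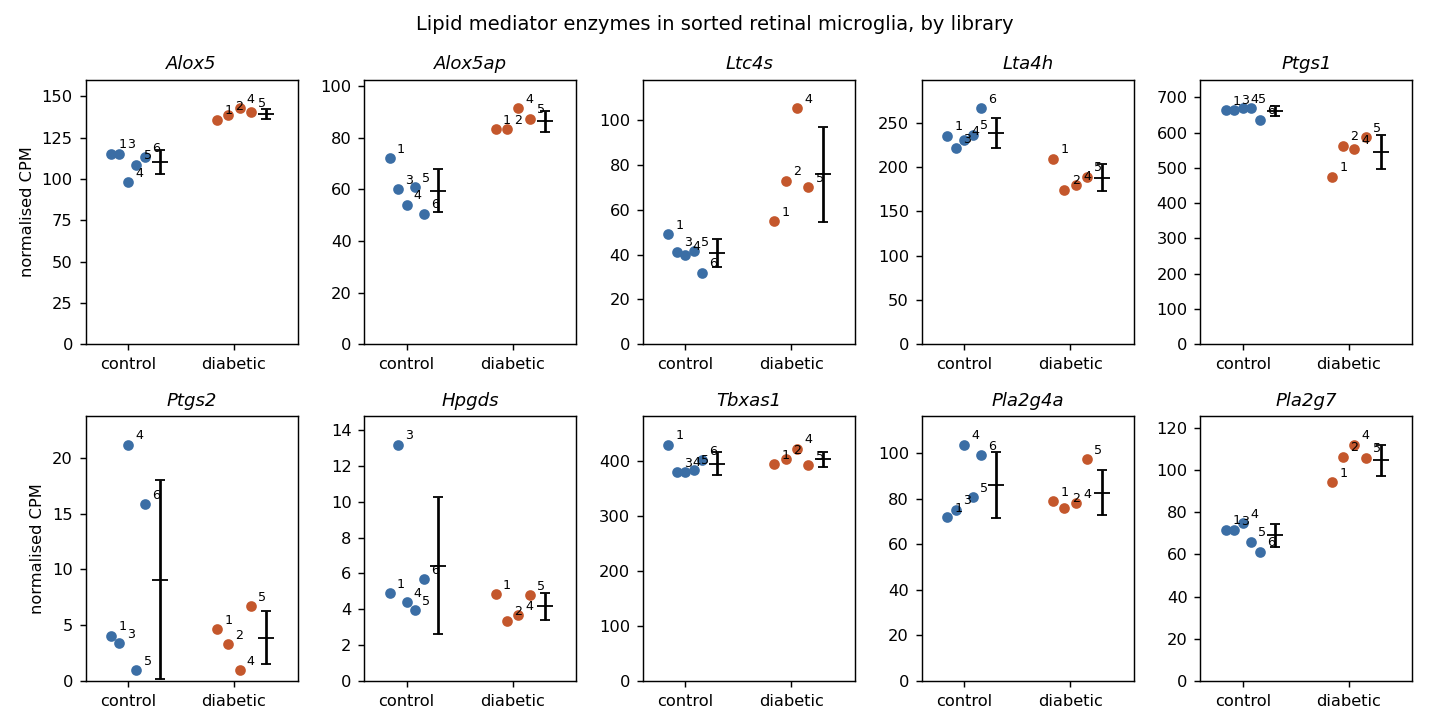
Normalised CPM (vertical axis, starting at 0, scaled for each gene) of the 10 enzymes in each control (blue) and diabetic (orange) library; numbers beside points are library numbers, and black bars give the mean and SD. Diabetic points lie above all control points for Alox5, Alox5ap, Ltc4s and Pla2g7 and below them for Lta4h and Ptgs1, and controls 4 and 6 are the highest for Ptgs2.

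In the leukotriene arm Alox5, Alox5ap and Ltc4s were higher in every diabetic library than in any control and Lta4h was lower, and 0 of these 4 passed the adjusted threshold. Alox5 and Alox5ap act before the routes to cysteinyl leukotrienes and to leukotriene B4 divide. Alox5, which encodes 5-lipoxygenase (ENSRNOG00000012972, Rnor6 chromosome 4, 148398892 to 148446303, minus strand, 14 exons), was at 115, 115, 98.1, 109 and 113 CPM in controls 1, 3, 4, 5 and 6 and at 136, 139, 143 and 140.3 CPM in diabetic 1, 2, 4 and 5. The diabetic libraries lay close together and all above the highest control. Its log2 fold change, diabetic minus control, was 0.34 (SE 0.11), a fold of 1.27.

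Alox5ap encodes FLAP, the membrane protein that presents arachidonic acid to 5-lipoxygenase (ENSRNOG00000000907, chromosome 12, 6854920 to 6879154, minus strand, 5 exons). It was at 72.1, 60.0, 54.1, 61.0 and 50.6 CPM in the controls and at 83.3, 83.3, 91.6 and 87.4 CPM in the diabetic libraries, in the same library order. Control 1 was the highest control and still lay below every diabetic library. This gave a log2 fold change of 0.53 (SE 0.15), a fold of 1.45.

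Ltc4s, the gene of leukotriene C4 synthase (ENSRNOG00000003244, chromosome 10, 35737664 to 35739625, minus strand, 5 exons), had the largest fold among the members whose groups did not overlap. It was at 49.0, 41.3, 39.8, 41.5 and 31.96 CPM in the controls and at 55.0, 73.0, 105 and 70.0 CPM in the diabetic libraries. Diabetic 1 was close to control 1, and diabetic 4, the library with the fewest counts, was the highest. The fitted log2 difference was 0.89 (SE 0.24), a fold of 1.86, and its lowest value with 1 library left out was 0.69, without diabetic 4.

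Lta4h encodes leukotriene A4 hydrolase, which competes with leukotriene C4 synthase for the same substrate (ENSRNOG00000004494, chromosome 7, 34288365 to 34320235, plus strand, 19 exons). It was at 236, 222, 230.5, 237 and 267 CPM in the controls and at 209, 175, 179 and 189 CPM in the diabetic libraries. Every diabetic library lay below every control, with diabetic 1 nearest to them. This gave a log2 fold change of -0.34 (SE 0.11), a fold of 0.790, and -0.22 without scaling factors.

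Since both enzymes act on leukotriene A4, their counts were set against each other within each library, where scaling between libraries plays no part. The ratio of Ltc4s to Lta4h counts was 0.208, 0.186, 0.172, 0.175 and 0.120 in controls 1, 3, 4, 5 and 6 and 0.263, 0.418, 0.588 and 0.370 in diabetic 1, 2, 4 and 5. The groups did not overlap, and the mean log2 ratio differed by 1.21, a fold of 2.32. Both genes enter this ratio through the contrast that chose them, so it is a description and was not tested.

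Other genes of leukotriene metabolism were taken from a list. Of 11 listed enzymes of leukotriene and lipoxygenase metabolism 9 were in the table and 5 could be tested. In the quasi-likelihood test 0 passed, and 3 had an unadjusted p below 0.05 (60%, against 18.9% of all genes). Dpep2, a dipeptidase that converts leukotriene D4 to E4, averaged 25.7 ± 3.78 CPM over the 5 controls and 33.4 ± 2.49 CPM over the 4 diabetic libraries (mean ± SD), a log2 fold change of 0.38 (SE 0.15, edgeR adjusted p = 0.166). Ptgr1, which oxidises leukotriene B4 to an inactive product, had a log2 fold change of 0.43 (SE 0.20, edgeR adjusted p = 0.229), and Alox12, the 12-lipoxygenase gene, of -0.33 (SE 0.16, edgeR adjusted p = 0.249), which was -0.21 without control 6 and -0.11 without controls 4 and 6. All 3 overlapped between the groups. Among the leukotriene receptors Cysltr1, for cysteinyl leukotrienes, was the one with enough counts to test, at 18.6 to 30.2 CPM in control and 14.5 to 20.3 CPM in diabetic libraries (log2 fold change -0.35, SE 0.18, edgeR adjusted p = 0.269; -0.23 without control 5). The leukotriene B4 receptor Ltb4r had 8 counts over the controls and 10 over the diabetic libraries, and Cysltr2 and Ltb4r2 had 0 counts in every library.

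In the prostanoid arm the constitutive cyclooxygenase was lower in diabetic libraries and the values of the other 3 members overlapped between the groups. Ptgs1, which encodes cyclooxygenase 1 (ENSRNOG00000007415, chromosome 3, 15560712 to 15582344, plus strand, 11 exons), was at 665, 665, 669, 669.9 and 637 CPM in controls 1, 3, 4, 5 and 6. In diabetic 1, 2, 4 and 5 it was at 476, 563, 553 and 587 CPM. The controls were close together, all diabetic libraries lay below them, and diabetic 1 was the lowest. The log2 fold change was -0.28 (SE 0.10), a fold of 0.824, and it was -0.17 with unscaled library sizes, where the median over all genes shifted to 0.12.

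Tbxas1 encodes thromboxane A synthase, which converts prostaglandin H2 to the platelet activator thromboxane A2 (ENSRNOG00000007918, chromosome 4, 66670618 to 66846805, plus strand, 13 exons). Controls spanned 379 to 429 CPM and diabetic libraries 392 to 422 CPM, so that all diabetic values fell inside the control range. Its log2 fold change was 0.030 (SE 0.080).

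Ptgs2, the inducible cyclooxygenase 2 and an immediate-early gene of activated macrophages, varied more between control libraries than between the groups. It was at 4.06, 3.38, 21.2, 0.963 and 15.9 CPM in the controls and at 4.64, 3.27, 0.955 and 6.70 CPM in the diabetic libraries, from 6 to 197 counts. Controls 4 and 6 were the highest and control 5 was near diabetic 4, the lowest. The log2 fold change of -1.18 (SE 0.96) turned to 0.48 (SE 0.62) without controls 4 and 6. RefSeq places a transcript named Ptgs2os between the starts of Ptgs2 and Pla2g4a, and since the strand setting of the counting is not given in the sources used here, reads of overlapping opposite-strand transcripts cannot be told apart from those of Ptgs2.

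Hpgds encodes hematopoietic prostaglandin D synthase (ENSRNOG00000006583, chromosome 4, 95946025 to 95970666, minus strand, 6 exons). It was at 4.91, 13.2, 4.40, 3.96 and 5.67 CPM in the controls and at 4.84, 3.37, 3.66 and 4.80 CPM in the diabetic libraries. Control 3 alone was high, and the other libraries overlapped. Its log2 fold change was -0.63 (SE 0.39) with all libraries and -0.18 without control 3. Control 3 also had the highest control level of the border macrophage list (935 CPM, against 437 to 647 CPM in the other controls). The border macrophage list was higher still in diabetic 1 and 4 (1720 and 1223 CPM), where Hpgds was at 4.84 and 3.66 CPM. Control 3 had the lowest level of the isolation response list. The part of either list in the Hpgds value of control 3 was not tested.

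The ratio of Ptgs2 to Ptgs1 counts was 0.00611, 0.00508, 0.0316, 0.00144 and 0.0249 in the controls and 0.00975, 0.00580, 0.00173 and 0.0114 in the diabetic libraries. Counts of Ptgs1 were thus the large majority in every library, with no correction for length, and the groups overlapped. The ratio of Hpgds to Tbxas1 counts overlapped too, at 0.0103 to 0.0348 in control and 0.00837 to 0.0123 in diabetic libraries.

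**Figure D2:**
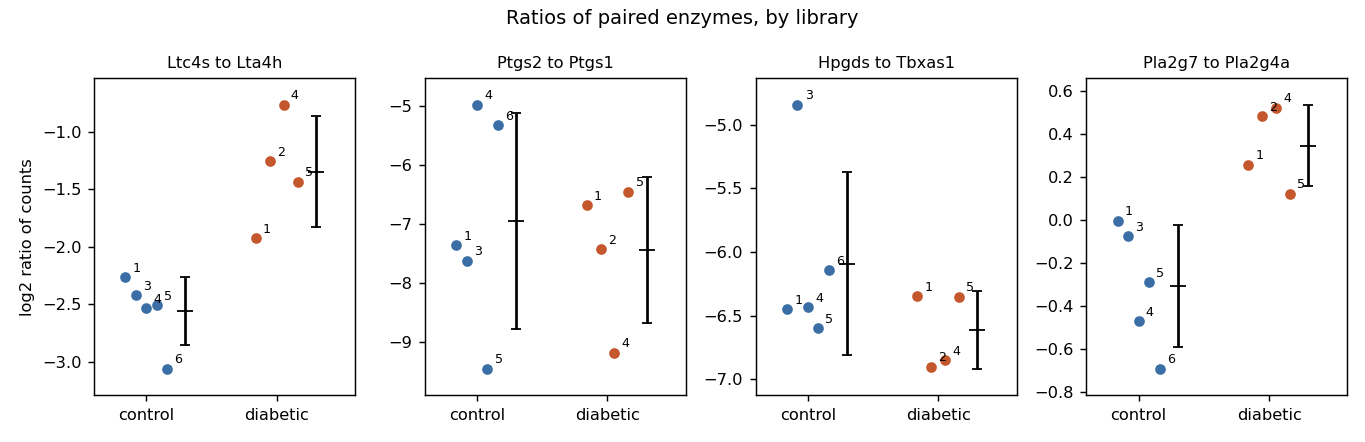
Log2 ratio of the raw counts of 4 enzyme pairs (vertical axes, each on its own scale) in control (blue) and diabetic (orange) libraries; numbers are library numbers, and black bars give the mean and SD. The groups are apart for Ltc4s to Lta4h and for Pla2g7 to Pla2g4a and overlap for Ptgs2 to Ptgs1 and Hpgds to Tbxas1.

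Of 7 other prostanoid synthase genes, 4 were tested and 0 passed the adjusted threshold. Akr1b1, aldose reductase, which also reduces prostaglandin H2 to prostaglandin F2 alpha, averaged 219 ± 18.8 CPM over the 5 controls and 171 ± 21.8 CPM over the 4 diabetic libraries (mean ± SD) without overlap, a log2 fold change of -0.35 (SE 0.13, edgeR adjusted p = 0.124). Ptges3, the cochaperone p23 with prostaglandin E synthase activity, had a log2 fold change of -0.36 (SE 0.14, edgeR adjusted p = 0.151). Ptgds, the lipocalin-type prostaglandin D synthase of glia and pigment epithelium, was at 0.867 to 4.25 CPM in control and 1.499 to 6.71 CPM in diabetic libraries (log2 fold change 1.08, SE 0.54, edgeR adjusted p = 0.253). Ptges, the inducible prostaglandin E synthase, had 11 counts over the controls, in controls 4 and 6 alone, and 2 over the diabetic libraries.

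Of 9 prostanoid receptor genes 4 were tested, and 0 of them had an unadjusted p below 0.05, against 18.9% of all genes. Ptger4, the prostaglandin E receptor EP4, was at 11.8, 5.12, 57.8, 12.0 and 78.1 CPM in controls 1, 3, 4, 5 and 6 and at 9.38, 9.59, 5.41 and 23.5 CPM in diabetic 1, 2, 4 and 5. Like Ptgs2 it was highest in controls 4 and 6, and its log2 fold change of -1.43 (SE 1.01, edgeR adjusted p = 0.411) turned to 0.32 without them. Ptgir, the prostacyclin receptor, was highest in the same libraries (5.48 and 12.9 CPM) and ran from 0.749 to 2.90 CPM in the other 7. Ptger2 (log2 fold change 0.57, SE 0.32, edgeR adjusted p = 0.304) and Ptger1 (0.022, SE 0.16, edgeR adjusted p = 0.951), the receptors EP2 and EP1, overlapped between the groups.

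Of 5 genes of prostanoid transport and breakdown 3 were tested, and 0 passed the adjusted threshold. Ptgr2, which reduces 15-keto prostaglandin E2, was at 37.7, 41.5, 50.8, 42.9 and 42.8 CPM in the controls and at 37.1, 25.5, 25.0 and 29.5 CPM in the diabetic libraries. All diabetic values lay below the controls, although diabetic 1 and control 1 nearly met, and the log2 fold change was -0.56 (SE 0.18, edgeR adjusted p = 0.0991). Abcc4, an exporter of prostaglandins (log2 fold change 0.30, SE 0.23, edgeR adjusted p = 0.469; 0.17 without control 6 and 0.080 without controls 4 and 6), and Zadh2, which carries a prostaglandin reductase activity (0.36, SE 0.20, edgeR adjusted p = 0.313; 0.22 without diabetic 1), overlapped.

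The phospholipases differed from each other. Pla2g7, the PAF acetylhydrolase also known as lipoprotein-associated phospholipase A2 (ENSRNOG00000025691, chromosome 9, 19935768 to 19978013, minus strand, 12 exons), was at 71.7, 71.4, 74.8, 66.0 and 61.3 CPM in the controls and at 94.3, 106, 112 and 106 CPM in the diabetic libraries. Its lowest diabetic library, diabetic 1, lay well clear of its highest control, control 4. The log2 fold change was 0.60 (SE 0.14), a fold of 1.51. Over 19 alternative settings the log2 fold change ran from 0.55 to 0.71, and Pla2g7 was past the adjusted threshold in 7 of them.

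Pla2g4a, the cytosolic phospholipase A2 that releases arachidonic acid (ENSRNOG00000002657, chromosome 13, 66988937 to 67206693, minus strand, 18 exons), was at 71.8, 75.1, 104, 80.5 and 99.0 CPM in the controls and at 78.9, 76.0, 77.9 and 97.2 CPM in the diabetic libraries. Controls 4 and 6 and diabetic 5 were high, and the groups overlapped. The log2 fold change was -0.059 (SE 0.14), and its sign depended on the scaling (0.022 with upper-quartile factors and 0.069 without factors). The ratio of Pla2g7 to Pla2g4a counts was 0.999, 0.950, 0.722, 0.819 and 0.620 in the controls and 1.195, 1.40, 1.44 and 1.09 in the diabetic libraries, without overlap. The genes differ in length, so a count ratio of 1 does not mark equal levels. Per kilobase of exon Pla2g7 was above Pla2g4a in all 9 libraries. The mean log2 ratio differed by 0.65, a fold of 1.57, again as a description.

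**Figure D3:**
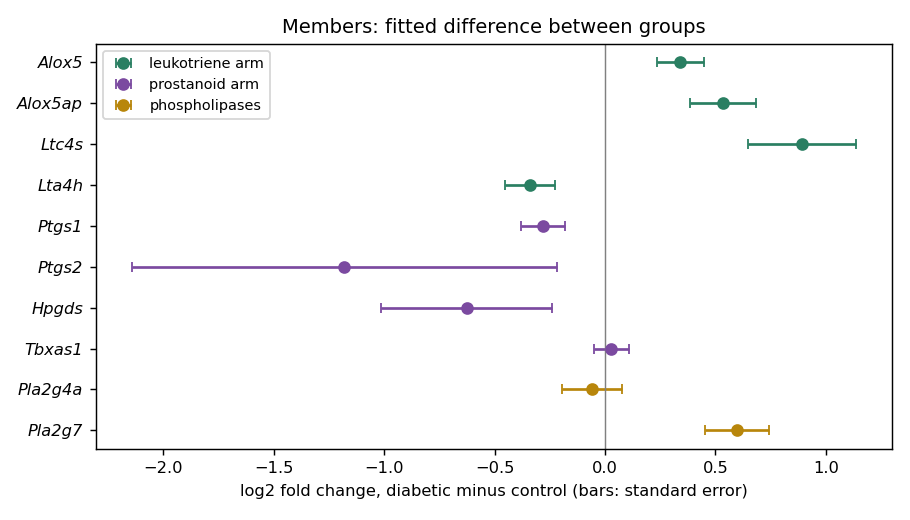
Log2 fold change, diabetic minus control, of the 10 enzymes from the edgeR fit across all genes (horizontal axis), with bars of 1 standard error and colours for the leukotriene arm, the prostanoid arm and the phospholipases. Ltc4s lies farthest above 0, Ptgs2 has the widest bar, and Tbxas1 and Pla2g4a lie at 0 within their bars.

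Genes that supply arachidonic acid to these enzymes, or limit its release, included Anxa1, the pathway gene with the smallest p among those that are not members. Of 16 listed genes 12 were tested, and 0 passed the adjusted threshold. An unadjusted p below 0.05 in the edgeR test was found for 5 (41.7%, against 18.9% of all genes). Anxa1, annexin A1, a glucocorticoid-induced protein known as an inhibitor of cytosolic phospholipase A2, was at 21.9, 33.2, 26.0, 22.1 and 33.1 CPM in the controls and at 49.4, 51.1, 46.2 and 42.0 CPM in the diabetic libraries. All diabetic libraries lay above all controls, and the log2 fold change was 0.79 (SE 0.21, edgeR adjusted p = 0.0620, with 0.000814 to 0.340 over 19 alternatives). It passed in 5 of those 19 settings.

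Acsl4, the acyl-CoA synthetase that prefers arachidonic acid and returns it to membranes, was at 52.4, 52.8, 104, 69.1 and 133 CPM in the controls and at 49.1, 38.7, 37.1 and 48.8 CPM in the diabetic libraries. Every diabetic library lay below every control, diabetic 1 and 5 by little, and controls 4 and 6 were again the highest. Its log2 fold change was -0.92 (SE 0.36, edgeR adjusted p = 0.153), and it was -0.43 without controls 4 and 6. The secreted phospholipase Pla2g2d had a log2 fold change of 1.00 (SE 0.36, edgeR adjusted p = 0.124) at 2.25 to 4.34 CPM in control and 3.98 to 8.98 CPM in diabetic libraries, and Daglb, a diacylglycerol lipase, of -0.20 (SE 0.094, edgeR adjusted p = 0.231). Pla2g15, the lysosomal phospholipase A2, was at 334 to 370.3 CPM in control and 299.7 to 379 CPM in diabetic libraries.

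All 8 listed genes of PAF synthesis, breakdown and reception other than Pla2g7 were tested, and 0 passed the adjusted threshold. The log2 fold change was below 0 for 7 of them, against 5841 of the 11748 genes tested. Among these 7, Lpcat3 was near 0 (-0.043). Pafah1b1 (-0.39) was at 125 and 170 CPM in controls 4 and 6. It was at 67.2 to 71.5 CPM in the other controls and 69.6 to 85.1 CPM in diabetic libraries. Lpcat2, the acyltransferase that makes PAF in inflammatory cells, was at 1119, 1129, 1005, 1070.1 and 969.6 CPM in the controls and at 813, 910.4, 873 and 876 CPM in the diabetic libraries. It lay below the controls in every diabetic library (log2 fold change -0.29, SE 0.099, edgeR adjusted p = 0.118). Ptafr, the PAF receptor, averaged 987 ± 112 CPM over the 5 controls and 828 ± 66.4 CPM over the 4 diabetic libraries (mean ± SD), with overlap (log2 fold change -0.25, SE 0.11, edgeR adjusted p = 0.206). The exception was Pafah1b3, a catalytic subunit of the intracellular PAF acetylhydrolase, at 2.78 to 4.25 CPM in control and 4.50 to 6.02 CPM in diabetic libraries (log2 fold change 0.59, SE 0.26, edgeR adjusted p = 0.206).

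Over all 7 lists, 58 of 61 pathway genes were in the table, 37 were tested, 19 had a positive and 18 a negative fold change, and the median log2 fold change was 0.022. In the edgeR quasi-likelihood test 0 of the 37 passed the adjusted threshold. At an unadjusted p below 0.05 there were 15 (40.5%), 7 higher and 8 lower, against 18.9% of all genes, and the groups did not overlap for 7 (18.9%), 2 above and 5 below, against 8.44% of all genes. The limma-voom fit also called 0. The DESeq2 Wald test called 6 (Anxa1 and Pla2g2d higher, Acsl4, Akr1b1, Lpcat2 and Ptgr2 lower) of the 50 pathway genes with an unadjusted p (12%). Over all genes it called 598 of 17805 with an unadjusted p (3.36%). Both totals include genes without an adjusted p, which could not be called. Of the 37 pathway genes above, 36 had an adjusted p in that test. The fit with the isolation response list as a covariate called 10 of 37 (27%), against 1434 of 11748 genes in all (12.2%). A further 13 genes had too few counts to test, and 8 had 0 counts in every library, which allows up to 0.0355 CPM over the 84533787 counts of the 9 libraries, for counting error only.

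**Figure D4:**
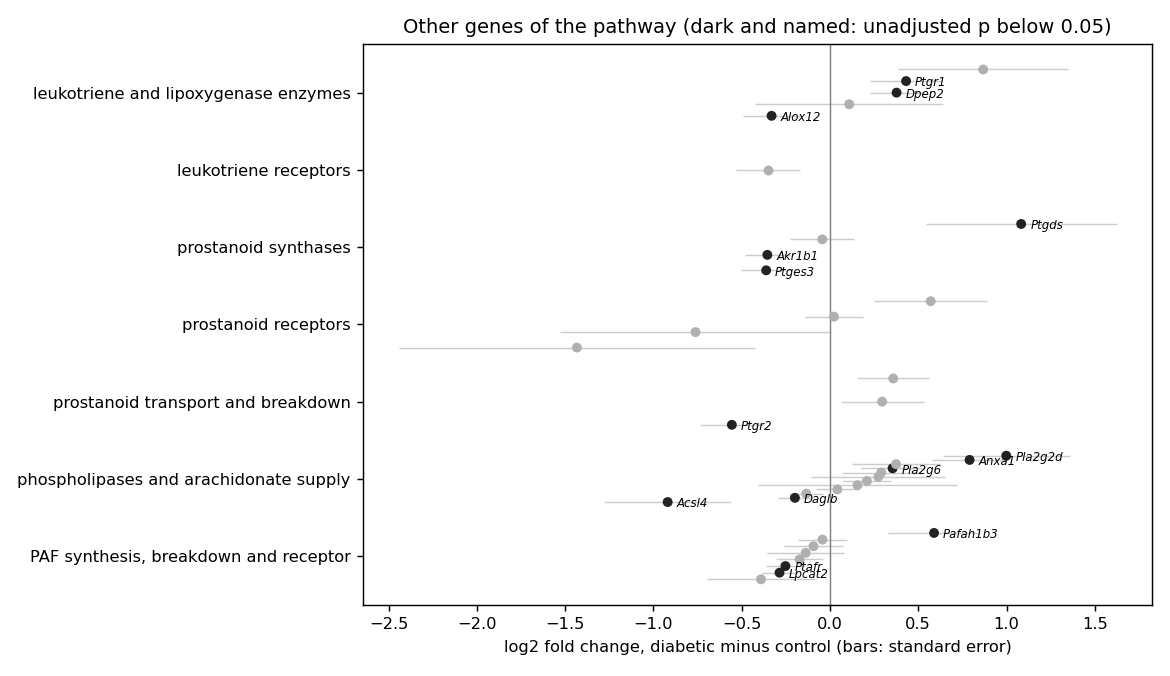
Log2 fold change, diabetic minus control (horizontal axis, bars of 1 standard error), of the 37 tested pathway genes other than the 10 enzymes, by list; dark, named points have an unadjusted p below 0.05. Of the 15 dark points 7 lie above 0 and 8 below, and the widest bars belong to Ptger4 and Ptgir.

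The authors' deposited table of the same comparison, on the same libraries, listed 12069 genes, of which 254, or 2.1%, had an adjusted p below 0.05. Of these 254 genes, 232 had a positive log2 fold change. The members past that threshold in the authors' deposited table numbered 3 of 10, namely Ltc4s (log2 fold change 0.99), Pla2g7 (0.71) and Alox5ap (0.64). The authors' deposited table gave Alox5 a log2 fold change of 0.45, Lta4h -0.22 and Ptgs1 -0.17, all short of that threshold. Its median over all genes was 0.12, as in the edgeR fit above without scaling factors. That fit gave log2 fold changes of 0.99 for Ltc4s, 0.71 for Pla2g7 and 0.64 for Alox5ap. Of the 37 pathway genes, the authors' deposited table had Anxa1 (0.92) and Acsl4 (-0.76) past the same threshold.

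Levels were compared between members per kilobase of exon, using the reference transcripts of the authors' assemblies on Rnor6; Ptgs2 had no such transcript there and is left out. In control libraries the order of mean CPM per kilobase was Ptgs1 (236 ± 4.87, SD, n = 5), Tbxas1 (201 ± 10.8), Lta4h (118 ± 8.41), Ltc4s (80.4 ± 12.0), Alox5ap (60.2 ± 8.28), Alox5 (47.0 ± 3.09), Pla2g7 (39.3 ± 3.04), Pla2g4a (30.3 ± 5.07) and Hpgds (5.48 ± 3.26). The ranges of Ltc4s and Alox5ap, of Alox5 and Pla2g7 and of Pla2g7 and Pla2g4a overlapped between neighbours, and the other neighbours were apart. In diabetic libraries Ltc4s (149.9 ± 42.0, SD, n = 4) was above Lta4h (93.2 ± 7.64) in mean level and in each of the 4 libraries, and Tbxas1 (205 ± 7.04) was above Ptgs1 (194 ± 17.2) in mean level, with overlapping ranges. Preamplification acts on genes unequally, so these levels describe the libraries.

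A measure that played no part in the choice of the genes was the response of the cells to isolation, taken as the mean log2 CPM of 18 immediate-early and stress genes. It ran from 6.24 in control 3 to 9.24 and 9.49 in controls 4 and 6, and from 7.59 to 8.85 in the diabetic libraries. Of 10 relations tested over the 9 libraries, 1 passed after adjustment: Pla2g4a had a Pearson r of 0.835 (exact permutation p = 0.00406, adjusted p = 0.0406) and a Spearman rho of 0.817 (exact permutation p = 0.0108, adjusted p = 0.108). Without control 3 and control 6, the libraries farthest from the median score, r was 0.878, and with both measures centred within groups it was 0.870. The relation rests on the 3 libraries of highest score, controls 4 and 6 and diabetic 5, which were also the 3 highest for Pla2g4a: among the other 6 libraries r was 0.357 (exact permutation p = 0.496, adjusted p = 0.620). It passed in 3 of the 12 alternatives fixed for it.

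Ptgs2 followed the same libraries, with r = 0.700 (exact permutation p = 0.0357, adjusted p = 0.179) and rho = 0.667 (exact permutation p = 0.0589, adjusted p = 0.294), and r was 0.0360 among the 6 libraries of lower score (exact permutation p = 0.964, adjusted p = 0.964). Between them, Ptgs2 and Pla2g4a, the neighbours whose promoters are printed above, had an r of 0.740 over the 9 libraries, which share depth and isolation response. The other 8 members had r between -0.479 and 0.131, with adjusted p-values by exact permutation of 0.655 to 0.923. Centred within groups, r was -0.674 for Alox5ap, -0.536 for Alox5, -0.502 for Ltc4s, -0.471 for Hpgds, 0.520 for Lta4h, 0.774 for Ptgs2 and 0.870 for Pla2g4a, and it lay between -0.298 and -0.0422 for Pla2g7, Tbxas1 and Ptgs1. These centred values were not tested. Pla2g7 (r = 0.0384) was higher in each diabetic library than in any control, and the diabetic scores lay inside the range of the control scores. The part of the isolation response in the Pla2g7 values was not tested.

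**Figure D5:**
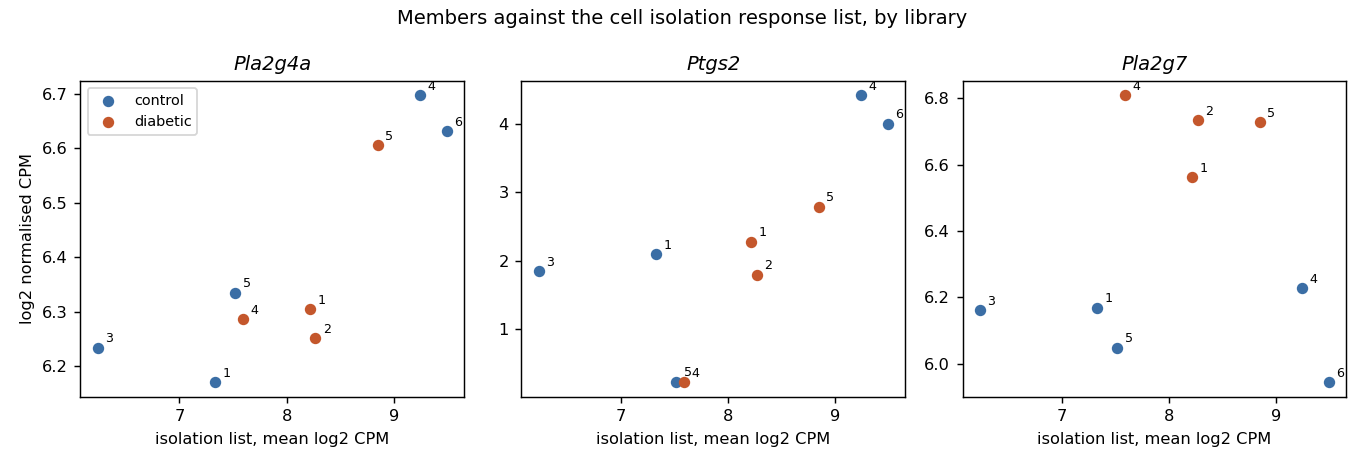
Log2 normalised CPM of Pla2g4a, Ptgs2 and Pla2g7 (vertical axes, each on its own scale) against the mean log2 CPM of the cell isolation response list (horizontal axis) in control (blue) and diabetic (orange) libraries, numbered by library. Pla2g4a and Ptgs2 are highest in controls 4 and 6 and diabetic 5, and Pla2g7 is higher in the 4 diabetic libraries, whose scores lie between 7.59 and 8.85, than in the controls.

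The members whose groups did not overlap varied together over the libraries, as a description of 9 shared libraries in which the group difference is part of each value. Pearson's r of log2 CPM was 0.935 between Ltc4s and Pla2g7, 0.924 between Alox5ap and Ltc4s, 0.907 between Alox5 and Alox5ap and -0.960 between Lta4h and Pla2g7. The pairs of Ptgs1 were weaker, with r of -0.795 (Alox5), -0.731 (Pla2g7), -0.727 (Alox5ap), -0.600 (Ltc4s) and 0.598 (Lta4h). Of all 11748 genes tested, those most like Pla2g7 were LOC100911959 (r = 0.980), Nabp2 (0.972) and Mrps24 (0.968). Those most like Ltc4s were Txndc15 (0.972), Psma7 (0.966) and Ddrgk1 (0.964). Those most like Ptgs2 were Asah2 (0.973), AABR07021220.1 (0.951) and Rbm28 (0.930).

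CD11b also marks other myeloid cells that use these enzymes, and in bulk RNA fewer cells of a type cannot be told apart from less RNA per cell. The border macrophage list, 10 of 11 genes in the table, summed to 437 to 935 CPM in control and 793 to 1720 CPM in diabetic libraries, with 1 gene, Cd163, above the controls in every diabetic library. Diabetic 1 had the highest level of that list, and it had the lowest diabetic value of Alox5, Ltc4s and Pla2g7. Diabetic 4 had the next highest level of the list (1223 CPM, against 793 and 908 CPM in diabetic 2 and 5), and it had the highest value of Alox5, Alox5ap, Ltc4s and Pla2g7. The neutrophil list summed to 302 to 382 CPM over controls and 307 to 371 CPM over diabetic libraries, most of it Csf3r. Csf3r lay below the controls in every diabetic library (301 to 370 CPM in control, 277 to 298 CPM in diabetic libraries). Within the neutrophil list S100a9 went the other way, at 0.214 to 5.57 CPM in control and 14.8 to 52.9 CPM in diabetic libraries. S100a8 was also above the controls, and Ltf, Lcn2 and Mpo had 0 counts. S100a9 was highest in diabetic 4, as Alox5, Alox5ap, Ltc4s and Pla2g7 were, and its next highest level was in diabetic 1 (37.0 CPM), where Alox5, Ltc4s and Pla2g7 had their lowest diabetic values. The monocyte list ran from 195 to 244 and from 228 to 258 CPM, with Plac8 and Spn above the controls and Ccr2 at 0 counts in every library. The part of border macrophages, neutrophils and monocytes in the values of Alox5, Alox5ap, Ltc4s and Pla2g7 was not tested.

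Mast cells and platelets, which are rich in leukotriene C4 synthase, prostaglandin D synthase or thromboxane synthase, were nearly without markers. The mast cell list summed to 0 to 5.47 CPM in control and 1.27 to 3.55 CPM in diabetic libraries, and Tpsab1, Tpsb2, Cma1, Mcpt1 and Mcpt2 had 0 counts in every library. The platelet list summed to 5.56 to 9.35 and 4.90 to 6.60 CPM, and Gp1bb, Gp5 and Gp6 had 0 counts. Of the microglia markers C1qc was above the controls in every diabetic library, and Csf1r was below them.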

How the data were processed

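RNA-seq of CD11b-sorted rat retinal microglia was compared between 5 control and 4 diabetic libraries, grouped by their titles. The authors deposited raw counts per gene symbol for 28343 genes. They also deposited a table of log2 fold changes with p-values and adjusted p-values. The third kind of file holds transcript assemblies from StringTie 1.2.4 on Rnor6, per the file headers, with TPM and FPKM normalized within each library by the authors. The submitters' processing notes name bcl2fastq 2.18.0.12, TopHat2 2.0.14, StringTie 1.2.4 and edgeR. How reads were counted, and whether by strand, is not given in the sources used here, and no molecular identifiers are named, so counts are reads after preamplification and limits cover counting error only.

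Genes were filtered with filterByExpr (minimum count 10, minimum total 15), which kept 11748. Library sizes were corrected by TMM, and the groups were compared in edgeR 4.0.16 (R 4.3.3) by its quasi-likelihood test with robust dispersion and no covariates, using Benjamini-Hochberg adjustment and a threshold of 0.05. Each SE was derived from the log2 fold change and the normal quantile matching its p-value. Levels are CPM on the TMM-scaled library size. The script was tested on simulated data. The members, the pathway and marker lists and the tests were chosen with earlier results of these data known. Named pathway genes are, per list, the 3 with the smallest p and the 2 with the highest mean CPM, with any past the threshold; Ptges, Ltb4r, Cysltr2 and Ltb4r2 were named after their values were seen. Correlations used exact permutation of the libraries and adjustment over 10 relations. Alternatives were DESeq2 size factors, upper-quartile or no factors, other filters, DESeq2 1.42.0, limma-voom (limma 3.58.1), the replicate block, the isolation list as a covariate, libraries left out and TPM. No pair of libraries in a group agreed within sampling noise (chi-square of at least 11.7 per degree of freedom). Gene spans and exon lengths come from reference transcripts of the assemblies on Rnor6, and promoters from RefSeq's GRCr8; coordinates were not converted between them.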

Additional observations from a re-analysis of the deposited data

Results flagged for a closer look

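In groups of 4 or 5 libraries, single values were compared with the gap that separates them from the rest (Dixon's criterion at 95%). Of 72 groups of values checked 6 were set apart, where chance gives about 1 in 20 groups. Ptgs1 in control 6 (637 CPM) lay below the other controls, of which the nearest was at 665 CPM. Hpgds in control 3 (13.2 CPM) lay above the next control at 5.67 CPM, and the ratio of Hpgds to Tbxas1 counts in control 3 (0.0348) lay above the next at 0.0142. Pla2g4a in diabetic 5 (97.2 CPM) lay above the next diabetic library at 78.9 CPM. Pla2g15 in diabetic 4 (379 CPM) lay above the next at 309 CPM, and Ptafr in control 6 (1179 CPM) lay above the next at 962 CPM.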

How the results depend on the processing

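The number of genes past the threshold over the whole table, 8, was 31 with upper-quartile factors (27 higher), 29 without factors (28 higher), 42 without a filter, 5 with a CPM filter, 598 by the DESeq2 Wald test (281 higher), 4 by limma-voom and 1434 with the isolation list as a covariate (543 higher). It was 0 without controls 4 and 6 (1776 genes at an unadjusted p below 0.05) and 0 to 75 when 1 library was left out, with 0 without control 4, diabetic 1 or diabetic 4, 1 without control 3 or 5, 2 without diabetic 2 and 75 without control 1. With the replicate block it was 0 (1129 at an unadjusted p below 0.05); same-numbered libraries deviated from their group means with r of 0.201, -0.114 and 0.0156, so the numbers were not taken as pairs. As a description, since the members were selected on this contrast, 6 of them were past the threshold by the DESeq2 Wald test or with the isolation covariate (Alox5, Alox5ap, Ltc4s, Lta4h, Ptgs1 and Pla2g7), 3 without control 1 (Alox5ap, Ltc4s and Pla2g7), 2 without a filter, and 0 with the CPM filter, limma-voom, the replicate block, without controls 4 and 6 or without any 1 of the other 8 libraries. Alox5, Alox5ap, Ltc4s, Lta4h, Ptgs1, Tbxas1 and Pla2g7 kept their direction in all 19 settings. On TPM, which could be compared for Alox5ap and Tbxas1 of the members, Alox5ap had a log2 fold change of 1.14 and Tbxas1 of 0.098, and neither passed; for the other 8 members this setting was not run.

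Of the pathway genes, 1 passed with upper-quartile factors, 1 without factors and 1 without a filter (Anxa1 each time), 6 by the DESeq2 Wald test and 10 with the isolation covariate, against 0 in the fit reported. The relations with the isolation list past the threshold, 1 as reported, were 0 on CPM without TMM factors, 0 with a z-scaled list and 0 without the 3 libraries of highest list score, a setting chosen after seeing the data, and 0 to 2 when 1 library was left out: 2 without control 3, 1 without diabetic 2 and 0 without any other.

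Turns of sign were looked for among the members and the named pathway genes, and other pathway genes are not covered here. Without controls 4 and 6 the log2 fold changes of Ptgs2 (0.48), Pla2g4a (0.11), Ptger1 (-0.0060), Ptger4 (0.32) and Ptgir (0.93) turned sign. Pla2g4a also turned with upper-quartile factors (0.022), without factors (0.069) and without control 4 (0.016), and ran from -0.15 to 0.016 when 1 library was left out. Hpgds turned with the replicate block (0.0041). Ptgir turned by limma-voom (0.043), with the replicate block (0.36) and without control 6 (0.13), and ran from -1.03 to 0.13 when 1 library was left out. Ptger1 turned without control 1 (-0.015), control 4 (-0.0045), diabetic 4 (-0.00052) or diabetic 5 (-0.039), and ran from -0.039 to 0.095. The cause of these turns was not tested. Ptgs2 and Hpgds, with as few as 6 and 23 counts in a library, are the members most limited by depth.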
